A study of Mus musculus with 81 samples.

Results

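A set of 6 genes whose products connect surplus centrosomes or a prolonged mitosis to p53 was followed through mouse thymic lymphomas and normal thymus. They are Pidd1, Cradd and Casp2, which encode the PIDDosome, Ankrd26, which recruits it to centrioles, and Usp28 and Trp53bp1, which encode the mitotic stopwatch proteins that act on p53. The 6 were taken by symbol from a deposited table of 51826 genes, and all 6 were present and passed the filter on low counts in every comparison. The choice was by name, with earlier results of these data known.

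The PIDDosome is an activating platform for caspase-2 in which the death-domain protein PIDD1 binds the adaptor CRADD (also called RAIDD), and CRADD binds caspase-2. ANKRD26 sits on the distal appendages of mature centrioles and brings PIDD1 there, so that a cell with too many mature centrioles activates caspase-2, which cleaves MDM2 and thereby stabilises p53. The mitotic stopwatch is a complex of 53BP1 (the product of Trp53bp1), the deubiquitinase USP28 and p53 that forms when mitosis is prolonged and is inherited by the daughter cells, where it stabilises p53. Both routes end at p53, whose gene was mutant on 1 or both alleles in the mice with tumours.

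The animals were bred to test how aneuploidy bears on tumour development. Every mouse, normal controls included, was of the strain C57BL/6 x 129S4Sv/Jae and carried an inducible Plk4 transgene at Col1a1, with rtTA (its doxycycline-dependent activator) and centrin-GFP at Rosa. The transgene is switched on by doxycycline, and its product PLK4 is a kinase that triggers the doubling of centrioles. The groups were normal thymus p53+/+ without doxycycline (8 mice, 8 libraries), untreated p53-/- lymphoma (10 mice, 23 libraries), treated p53-/- lymphoma (9 mice, 18 libraries) and treated p53+/- lymphoma (12 mice, 31 libraries). Doxycycline was given to the treated mice for 2 weeks, beginning at an age of 30 days. A further normal thymus, p53+/- and without doxycycline, was a single animal and is given as a value only. The age at collection is not among the labels, and no treated p53+/+ tissue and no untreated p53+/- lymphoma was analysed here, so effects of the induction on normal thymus cannot be read from these groups. Every lymphoma was p53-/- or p53+/- and the normal thymuses tested were p53+/+. Tumour and p53 genotype therefore cannot be told apart in the comparisons with normal thymus. RNA came from snap-frozen pieces of bulk tissue, and 13 of the 31 lymphomas were sampled as multifocal tumours with several biopsies each (54 libraries). Biopsies of one mouse were summed before any comparison, so that n is the number of mice.

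Deposited counts summed to between 1030429 and 26871781 per library. Trp53 itself lay between 69.6 and 115.4 CPM (counts with each library brought to 1 shared total) in normal thymus, with a median of 100.3. Its medians were 43.6 CPM in untreated p53-/- lymphomas, 43.4 CPM in treated p53-/- and 39.2 CPM in treated p53+/- ones, and further triplets of lymphoma values keep that order. The table counts whole genes, and the labels do not say which exons the mutant allele lacks, so these levels do not check the genotype. Summed thymic epithelium markers (6 genes) had a median of 1335 CPM in normal thymus against 53.3, 44.9 and 34.1 CPM in the same order of lymphoma groups, and summed fat markers (6 genes) had 2000 against 51.3, 75.6 and 63.9 CPM. Normal mouse 387 stood apart, with the lowest T-lineage sum of its group (732.6 CPM against a median of 4047), the lowest thymic epithelium sum (103.8 CPM) and the highest fat (9207 CPM), B-lineage (1198 CPM against a median of 95.9), myeloid (1811 against 531.8), fibroblast (2634 against 242.1), endothelium (496.9 against 191.0) and erythroid sums (4546 against 707.0). Lymphoma 881 of the untreated p53-/- group had a T-lineage sum of 158.3 CPM and a B-lineage sum of 2897 CPM, against medians of 2867 and 10.96 CPM in its group. In bulk tissue, fewer cells of a type and less RNA per cell cannot be told apart.

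Pidd1 was higher in lymphomas than in normal thymus in all 3 groups, by 1.72-fold to 2.05-fold, and Casp2 by 1.35-fold to 1.55-fold. Cradd, the adaptor between them, was the only member that fell. It was at 0.48 of the normal level in treated p53-/- lymphomas. Ankrd26 and Trp53bp1 rose in some lymphoma groups, and Usp28 was called in none. Of the 6 genes, 4 were called higher and 0 lower in untreated p53-/- lymphomas, 3 higher and 1 lower in treated p53-/- lymphomas, and 2 higher and 0 lower in treated p53+/- lymphomas (edgeR quasi-likelihood test, Benjamini-Hochberg adjusted p below 0.05 over 17841 genes). Of all genes tested, 23.2%, 25.4% and 25.6% were called higher and 17.6%, 26.7% and 25.3% lower in the same order. A call for a single gene was therefore common in these comparisons. Scaling moved these shares: in untreated p53-/- lymphomas 56.9% of all calls were higher with TMM factors and 46.7% with library totals alone, a setting that shifted the median of all genes by -0.13, -0.05 and -0.12 (log2) in the 3 comparisons. With library totals alone, Pidd1 was the 1 member still called higher in each group. The members' median log2 fold change was 0.56, 0.47 and 0.37, beside 0.08, -0.04 and -0.00 over all genes tested. The 3 comparisons share the 8 normal thymuses as controls, so their likeness is not independent evidence.

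**Figure D1:**
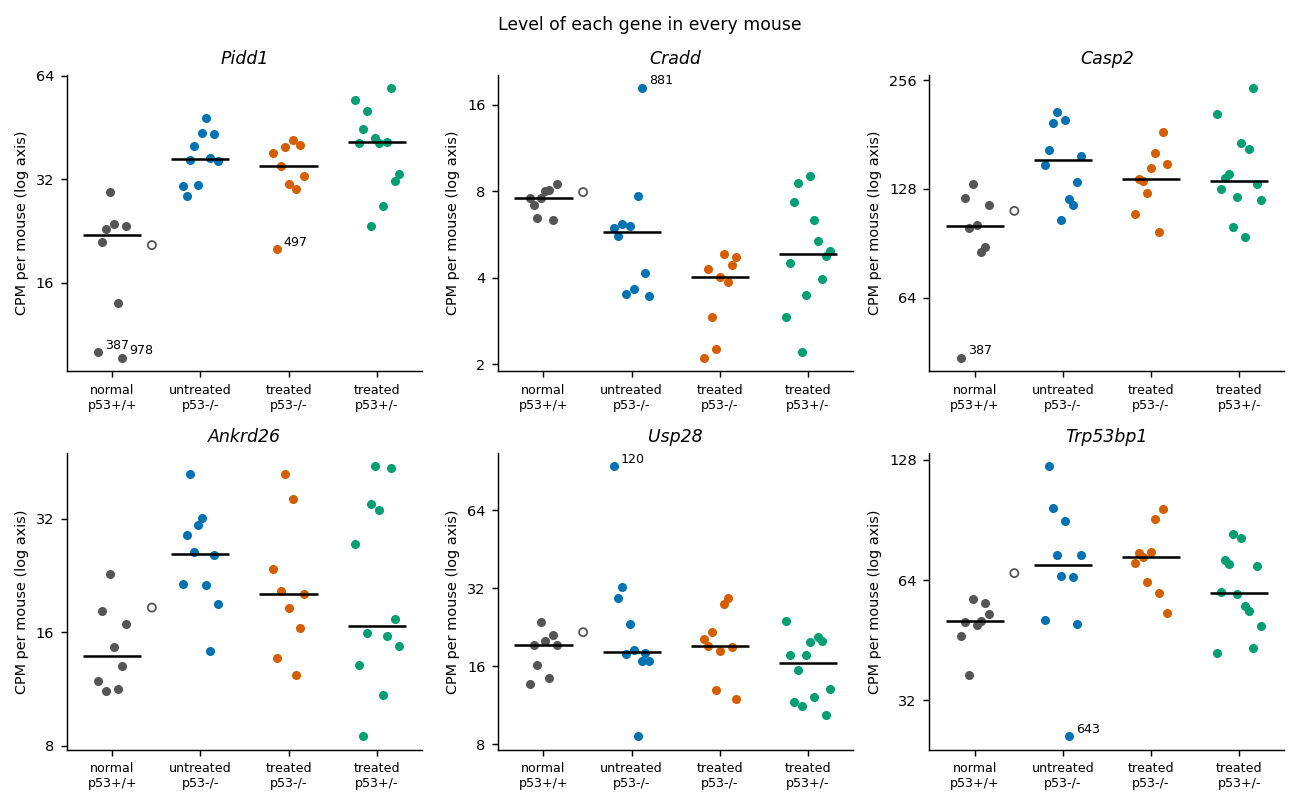
Level of each of the 6 genes in every mouse, as CPM on a log axis, by group. Each filled point is 1 mouse, bars are group medians, the open circle is the single p53+/- normal thymus, and numbers name mice discussed in the text. Pidd1 lymphoma points lie mostly above the normal maximum of 29.5 CPM, Cradd points of treated p53-/- lymphomas all lie below the normal minimum of 6.36 CPM, and single mice stand far from their groups for Usp28, Cradd and Trp53bp1.

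Pidd1 encodes the sensor of the complex, a protein that cleaves itself and whose death domain starts the assembly. The gene (ENSMUSG00000025507) lies on chromosome 7 at chr7:141438113-141444025 of GRCm38, on the minus strand. In normal thymus it ranged from 9.67 to 29.5 CPM with a median of 21.98. The lowest, median and highest values were 28.6, 36.6 and 48.2 CPM in untreated p53-/- lymphomas, 20.01, 35.1 and 41.8 CPM in treated p53-/- lymphomas, and 23.4, 41.05 and 59 CPM in treated p53+/- lymphomas. Above every normal thymus were 9 of 10, 8 of 9 and 10 of 12 lymphomas, while the lowest treated p53-/- lymphoma lay below the normal median, so the ranges overlapped. The log2 fold changes were 0.91 ± 0.20 (SE, edgeR adjusted p = 0.000473), 0.79 ± 0.20 (edgeR adjusted p = 0.00134) and 1.03 ± 0.20 (edgeR adjusted p = 4.36e-05). Within the normal group, Pidd1 was lowest in mice 978 (9.67 CPM) and 387 (10.03 CPM). These were also the normal thymuses with the lowest sums over 10 proliferation genes, at 401.7 and 546.4 CPM against a group median of 1795. All lymphomas lay between 2479 and 4951 CPM in that sum, and whether proliferation accounts for the difference in Pidd1 was not tested. Without both mice, a choice made after the values were seen, the Pidd1 log2 fold changes were 0.70, 0.57 and 0.81 and all 3 calls held.

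Casp2 encodes the protease of the complex. The gene (ENSMUSG00000029863) lies at chr6:42264985-42282508 on the plus strand. Its level was 43.5 to 132.5 CPM in normal thymus with a median of 100.8. The lymphoma groups had 105.1, 153.6 and 209.6 CPM (untreated p53-/-), 97.1, 136.7 and 184.7 CPM (treated p53-/-) and 94.4, 134.7 and 243.8 CPM (treated p53+/-) as lowest, median and highest values. Overlap with normal thymus was wider than for Pidd1, with 7 of 10, 6 of 9 and 6 of 12 lymphomas above every normal thymus and none below. The log2 fold changes of 0.64 ± 0.19 (SE, edgeR adjusted p = 0.00593), 0.44 ± 0.18 (edgeR adjusted p = 0.0428) and 0.50 ± 0.18 (edgeR adjusted p = 0.0184) passed the test. Mouse 387, the normal thymus that stood apart in its markers, had the lowest value of all at 43.5 CPM, and the next normal value was 85.4 CPM. Without mice 387 and 978 the call held in untreated p53-/- lymphomas (log2 0.51, edgeR adjusted p = 0.0296), whereas it was lost in treated p53-/- (log2 0.28, adjusted p = 0.197) and treated p53+/- lymphomas (log2 0.34, adjusted p = 0.119). Leaving out 1 mouse at a time ended the call in treated p53-/- lymphomas in 8 of 39 fits, with the lowest value of 0.39 without mouse 663 or 869.

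Cradd encodes the adaptor, whose death domain binds PIDD1 and whose caspase recruitment domain binds caspase-2. The gene (ENSMUSG00000045867) lies at chr10:95174746-95324133 on the minus strand. Normal thymus was narrow, from 6.36 to 8.51 CPM with a median of 7.58. Untreated p53-/- lymphomas spanned 3.45 to 18.3 CPM around a median of 5.78, treated p53-/- lymphomas 2.11 to 4.84 CPM around 4.02, and treated p53+/- lymphomas 2.21 to 9.001 CPM around 4.85. Below every normal thymus were 8 of 10, 9 of 9 and 9 of 12 lymphomas, so that only the treated p53-/- group was separate from normal thymus. There the log2 fold change was -1.06 ± 0.29 (SE, edgeR adjusted p = 0.00298). It was -0.27 ± 0.30 in untreated p53-/- lymphomas (edgeR adjusted p = 0.507) and -0.56 ± 0.28 in treated p53+/- lymphomas (edgeR adjusted p = 0.0934). Mouse 881 of the untreated p53-/- group held the highest value of all mice. Without it the log2 fold change of its own group was -0.57 (edgeR adjusted p = 0.0776), and the treated p53+/- group passed the test at -0.57 (edgeR adjusted p = 0.045). Without mouse 387 as well, neither passed, at -0.47 (edgeR adjusted p = 0.166) and -0.44 (edgeR adjusted p = 0.15). Cradd counts were the lowest of the 6 genes, from 30 per mouse upward. An antisense gene, AC153366.1, overlaps Cradd, but it had at most 0.531 CPM in any mouse.

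The sequences around the starts of these 3 genes are shown because their proteins form 1 complex while their transcripts moved in different directions. Each run gives 250 bases before and 50 bases after the RefSeq gene start in GRCm38.p6, read 5′ to 3′ on the gene's own strand. Capitals mark the heptamer TTCCCGC or its reverse complement, a letter string that E2F factors of cell-cycle genes can bind, and the pentamer CCAAT or its reverse complement, the core of a CCAAT box. Both strands were searched and no match overlapped another.
Pidd1, chr7:141443976-141444275, minus strand: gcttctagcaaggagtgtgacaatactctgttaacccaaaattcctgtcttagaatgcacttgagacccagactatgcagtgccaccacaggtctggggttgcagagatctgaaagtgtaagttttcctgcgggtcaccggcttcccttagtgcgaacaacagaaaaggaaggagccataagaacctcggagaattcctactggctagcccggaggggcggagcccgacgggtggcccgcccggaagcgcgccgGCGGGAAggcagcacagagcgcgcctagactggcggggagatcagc
Casp2, chr6:42264735-42265034, plus strand: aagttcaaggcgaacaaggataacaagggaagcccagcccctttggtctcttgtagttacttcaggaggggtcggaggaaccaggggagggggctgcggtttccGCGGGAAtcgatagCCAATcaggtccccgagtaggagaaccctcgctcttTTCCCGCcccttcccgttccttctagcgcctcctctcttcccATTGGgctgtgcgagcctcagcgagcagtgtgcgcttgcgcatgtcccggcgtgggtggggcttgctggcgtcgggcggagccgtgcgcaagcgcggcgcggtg
Cradd, chr10:95324088-95324387, minus strand: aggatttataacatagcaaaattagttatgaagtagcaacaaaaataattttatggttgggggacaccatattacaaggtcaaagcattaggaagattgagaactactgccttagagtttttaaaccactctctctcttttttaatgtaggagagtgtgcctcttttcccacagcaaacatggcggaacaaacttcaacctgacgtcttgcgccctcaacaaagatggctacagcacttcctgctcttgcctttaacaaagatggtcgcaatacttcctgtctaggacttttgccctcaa
The Pidd1 window held 1 E2F-type heptamer, starting 5 bases after the gene start, and the Casp2 window held 2, at 146 and 96 bases before it, with 2 CCAAT pentamers at 132 and 54 bases before it. The Cradd window held none of these. Among 32851 RefSeq promoters of the same length, 4.6% held the heptamer and 37.4% the pentamer. Base composition differed as well, with 57.7% G and C and 17 CpG pairs for Pidd1, 63.7% and 26 for Casp2, and 40.3% and 4 for Cradd, against promoter medians of 52.7% and 7. The windows of Ankrd26 and Trp53bp1 held no match, and that of Usp28 held 1 CCAAT pentamer. The letters TTTGAA, found in 17.9% of promoters, and a single p53-type element, found in 8.36%, were in none of the 6 windows. A match is a string of letters and not a measured binding site.

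Ankrd26 encodes the recruiter, a scaffold of the distal appendages that hold a mature centriole to the membrane. The gene (ENSMUSG00000007827) lies at chr6:118501308-118562226 on the minus strand, on the same chromosome as Casp2. It ranged from 11.2 to 22.9 CPM in normal thymus with a median of 13.8. The lowest, median and highest lymphoma values were 14.3, 25.8 and 42.02 CPM (untreated p53-/-), 12.3, 20.2 and 41.9 CPM (treated p53-/-) and 8.49, 16.6 and 44.01 CPM (treated p53+/-). The treated p53+/- group was the widest, with 5 of 12 mice above every normal thymus and 2 below. Only the untreated p53-/- group passed the test, at a log2 fold change of 0.74 ± 0.30 (SE, edgeR adjusted p = 0.0458), against 0.55 ± 0.29 (adjusted p = 0.11) and 0.59 ± 0.28 (adjusted p = 0.0757) in the treated p53-/- and p53+/- groups. These 3 fold changes lie within each other's errors. The call in untreated p53-/- lymphomas was lost in 18 of 39 fits that each left out 1 mouse, with the lowest value of 0.66 without mouse 202, and also without normal mice 387 and 978 (0.67, edgeR adjusted p = 0.123). Conversely, treated p53-/- lymphomas passed without mouse 857 (0.75), and treated p53+/- lymphomas passed in 7 of 39 such fits, with the highest value of 0.74 without mouse 266.

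Trp53bp1 encodes 53BP1, a large chromatin reader of double-strand breaks that also scaffolds the stopwatch complex. The gene (ENSMUSG00000043909) lies at chr2:121193281-121271407 on the minus strand. It ranged from 36.98 to 57.4 CPM in normal thymus with a median of 50.5. Untreated p53-/- lymphomas had 26.03, 69.8 and 123.3 CPM as lowest, median and highest value, treated p53-/- lymphomas 52.98, 72.96 and 96.5 CPM, and treated p53+/- lymphomas 41.95, 59.5 and 83.5 CPM. Above every normal thymus were 7 of 10, 8 of 9 and 7 of 12 lymphomas, and 1 untreated p53-/- lymphoma lay below all of them. Trp53bp1 rose in untreated p53-/- (log2 0.48 ± 0.19 SE, edgeR adjusted p = 0.0408) and treated p53-/- lymphomas (0.50 ± 0.19, edgeR adjusted p = 0.0244). In treated p53+/- lymphomas the value was 0.24 ± 0.18 (edgeR adjusted p = 0.273). The call in untreated p53-/- lymphomas was lost in 11 of 39 fits without 1 mouse, where the lowest value was 0.37 without mouse 157, and also without normal mice 387 and 978 (0.51, edgeR adjusted p = 0.065). In treated p53-/- lymphomas it was lost without mouse 663 (0.44). The end of Trp53bp1 overlaps Tubgcp4 on the opposite strand, a gene with a median of 57.4 CPM in normal thymus and 45.6 CPM in lymphomas. Whether the counting used strand is not given in the sources used here, and without it reads of the shared stretch cannot be told apart.

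Usp28 encodes the deubiquitinase of the stopwatch, which removes ubiquitin from p53 and also from other proteins such as MYC. The gene (ENSMUSG00000032267) lies at chr9:48985375-49042517 on the plus strand. It ranged from 13.7 to 23.6 CPM in normal thymus with a median of 19.4, and lymphoma medians of 18.2, 19.1 and 16.5 CPM lay within that range. The spread was wider than in normal thymus, from 8.59 to 94.5 CPM in untreated p53-/-, 12 to 29.4 CPM in treated p53-/- and 10.4 to 23.8 CPM in treated p53+/- lymphomas. The log2 fold changes were 0.40 (95% interval -0.18 to 0.98, edgeR adjusted p = 0.292), 0.08 (-0.49 to 0.64, adjusted p = 0.839) and -0.15 (-0.69 to 0.39, adjusted p = 0.678). Intervals of fold changes here and below are approximate, from the standard error that the F statistic implies. The first estimate rests on mouse 120, without which it was -0.04.

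Levels per kilobase of exon put the 6 genes in an order. In normal thymus the medians were 14.3 CPM per kb for Casp2, 4.85 for Pidd1, 3.56 for Trp53bp1, 3.32 for Usp28, 1.90 for Ankrd26 and 1.59 for Cradd. The protease was thus the most abundant transcript of its complex and the adaptor the least abundant. Trp53bp1 (2.61 to 4.06 CPM per kb) and Usp28 (2.35 to 4.05) overlapped over most of their range in normal thymus, and the range of Pidd1 (2.14 to 6.51) held both. Ankrd26 (1.54 to 3.15) and Cradd (1.34 to 1.79) shared only a short stretch. In untreated p53-/- lymphomas the medians were 21.8, 8.09, 4.925, 3.12, 3.56 and 1.21 CPM per kb in the same order of genes, so that Ankrd26 and Usp28 changed places. Their ranges there overlapped (1.97 to 5.79 for Ankrd26 and 1.47 to 16.2 for Usp28). Usp28 stayed above Ankrd26 in treated p53-/- (medians 3.28 and 2.78) and treated p53+/- lymphomas (2.83 and 2.29). Cradd had the lowest median in each of the 4 groups, at 0.844 CPM per kb in lymphomas of treated p53-/- mice and 1.02 in those of treated p53+/- mice.

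The single p53+/- normal thymus had 20.6 CPM of Pidd1, 7.95 of Cradd, 111.3 of Casp2, 18.6 of Ankrd26, 21.65 of Usp28 and 66.6 of Trp53bp1. Of these, 5 lay within the range of the p53+/+ thymuses, and Trp53bp1 lay above its maximum of 57.4 CPM. With 1 animal there is no test.

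**Figure D2:**
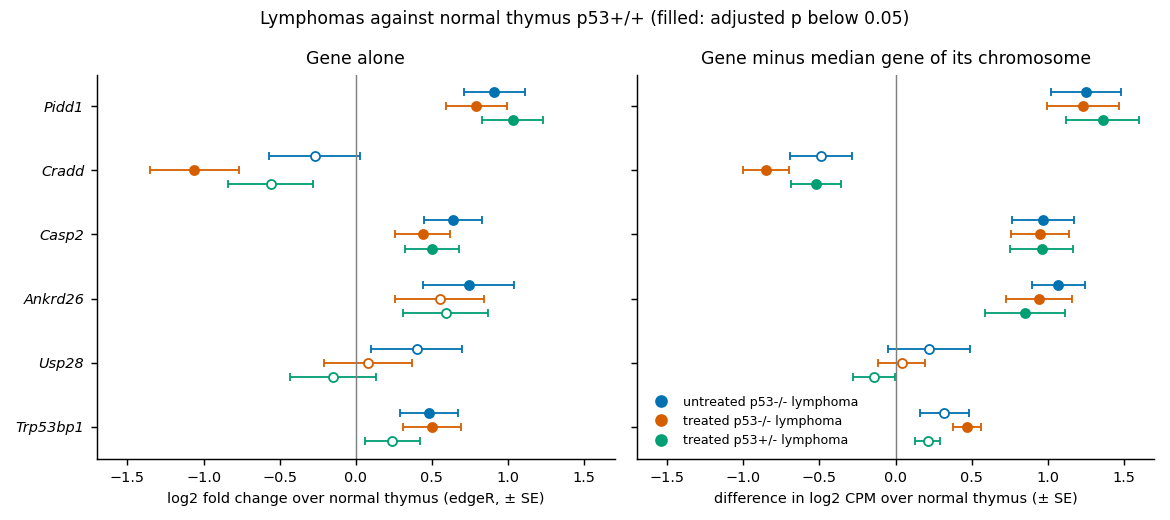
Difference of each lymphoma group from normal thymus for the 6 genes, as log2 fold change from edgeR (left) and as log2 CPM relative to the median gene of the same chromosome (right), with standard errors. Filled points passed an adjusted p of 0.05 and open points did not. Pidd1 and Casp2 are filled in all groups on both sides, and Ankrd26 is filled in all groups only on the right. The sides also differ in the test, edgeR with sex as covariate on the left and an exact permutation test without sex on the right.

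Lymphomas of this model shift whole chromosomes in expression, so each member was also measured against its own chromosome. The value was the gene's log2 CPM minus the median log2 ratio to normal thymus over the other genes of its chromosome, and groups were compared by a two-sided exact permutation test adjusted over 15069 autosomal genes. The median gene of chromosome 6, which carries Casp2 and Ankrd26, lay at -0.28, -0.42 and -0.37 (log2) in the 3 lymphoma groups, and it was under the lowest normal thymus in 9 of the 10, 9 of the 9 and 11 of the 12 tumours. Chromosome 7, which carries Pidd1, lay at -0.21, -0.33 and -0.23. Against that lower baseline, Casp2 differed by 0.97, 0.95 and 0.96 (adjusted exact permutation p = 0.000649, 0.000398 and 0.000176) and Pidd1 by 1.25, 1.23 and 1.36 (0.000404, 0.00065 and 0.000108). Ankrd26 was higher by 1.07, 0.94 and 0.85 and passed in all 3 groups (adjusted exact permutation p = 0.000855, 0.00174 and 0.0159). Before the chromosome was taken off, the plain differences in log2 CPM were 0.68, 0.53 and 0.59 for Casp2 and 1.04, 0.90 and 1.13 for Pidd1. For Ankrd26 they were 0.79, 0.52 and 0.48. This test also differs from the edgeR fits, which had sex as a covariate. With the chromosome taken from genes of at least 10 CPM, the treated p53+/- value of Ankrd26 was 0.60 and no longer passed (adjusted exact permutation p = 0.0571). Cradd was lower in treated p53-/- lymphomas (difference -0.85, adjusted exact permutation p = 0.000398) and also passed in treated p53+/- lymphomas at -0.52 (0.0241), but not in untreated ones at -0.49 (0.084). With chromosome genes of at least 10 CPM it passed in those too (-0.59, adjusted exact permutation p = 0.0334). Trp53bp1 passed in treated p53-/- lymphomas only (0.47, adjusted exact permutation p = 0.00133), and Usp28 in none. In this measure 3, 4 and 3 members were called higher and 0, 1 and 1 lower, where 24%, 29.9% and 29.1% of all autosomal genes were called higher and 23%, 29.5% and 29.1% lower.

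Among the lymphoma groups, no member was called, and neither was any of 16387 genes tested (0% by edgeR at an adjusted p of 0.05). At an unadjusted p under 0.05, edgeR passed 11.7% of genes in the doxycycline comparison within p53-/- lymphomas, 5.28% in the genotype comparison within treated lymphomas, and 6.34% when treated p53+/- was set against untreated p53-/-. DESeq2 called 75, 12 and 3 genes in these comparisons and limma voom 39, 1 and 1, and neither called a member. Cradd was the only member with an unadjusted edgeR p under 0.05, in treated against untreated p53-/- lymphomas, where the log2 fold change was -0.77 (95% interval -1.45 to -0.09, p = 0.0337, adjusted p = 0.399). Without mouse 881 that value was -0.46. For the doxycycline comparison within p53-/- lymphomas, the intervals were -0.54 to 0.16 for Pidd1, -0.59 to 0.09 for Casp2, -0.84 to 0.44 for Ankrd26, -0.96 to 0.32 for Usp28 and -0.40 to 0.41 for Trp53bp1. A 2-fold change in either direction lies outside all of these 5 intervals, but not outside that of Cradd. Between treated p53+/- and treated p53-/- lymphomas the estimates ran from -0.27 for Trp53bp1 (-0.63 to 0.10) to 0.52 for Cradd (-0.09 to 1.12).

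Variation among the 31 lymphomas went partly with the chromosome each gene sits on. Pearson's r between a member's log2 CPM and the median gene of its chromosome was 0.70 for Trp53bp1 (permutation p = 2e-05, adjusted 0.000358 over 15069 genes), 0.60 for Cradd (permutation p = 0.00025, adjusted 0.00209) and 0.51 for Usp28 (permutation p = 0.00836, adjusted 0.0287). Spearman's rho was 0.74, 0.54 and 0.58 for these 3. Without the 2 mice farthest from the median on the chromosome axis, r was 0.62, 0.48 and 0.50. Within the single lymphoma groups r was 0.85, 0.54 and 0.78 for Trp53bp1, 0.62, 0.30 and 0.48 for Cradd, and 0.51, 0.36 and 0.35 for Usp28. Ankrd26, Casp2 and Pidd1 did not pass, with r of 0.39, 0.37 and 0.30 (adjusted permutation p = 0.0768, 0.0901 and 0.192). Which members passed depended on the genes that stand for the chromosome: with genes of at least 10 CPM all 6 passed, with r of 0.62, 0.58 and 0.43 for these 3. In the 18 single-biopsy tumours only Trp53bp1 did. Such a relation was common, since 34% of autosomal genes passed with a positive r and the median r over all of them was 0.30. Trp53bp1 had a higher r than 95.1% of genes and Pidd1 than 49.4%.

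**Figure D3:**
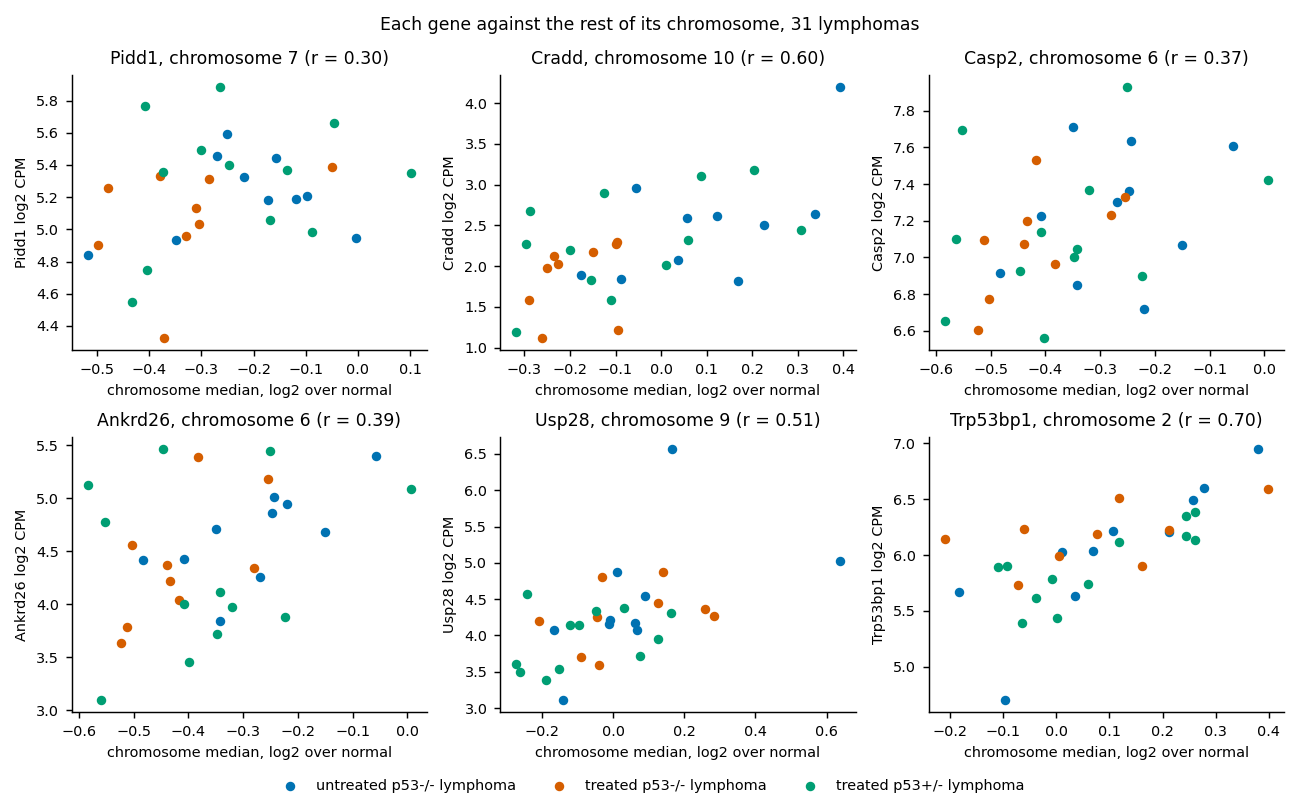
Level of each gene (log2 CPM) against the median log2 ratio of the other genes of its chromosome to normal thymus, 1 point per lymphoma, coloured by group. Trp53bp1 rises along its chromosome over most of its range (r = 0.70), Pidd1 shows little slope (r = 0.30), and the highest Usp28 and Cradd points are mice 120 and 881.

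In all, 3 mice stood far from all other lymphomas in 1 member each, and the genes around that member were read out in them. The choice of these mice and of the distances was made after the values were seen, so the values are given with no test. In mouse 120, an untreated p53-/- lymphoma, Usp28 had 94.5 CPM, while the other 30 lymphomas ranged from 8.59 to 32.4 CPM. Distances below run between the lower-coordinate ends of genes, whatever their strand. Of 42 neighbours within 3 Mb with a mean of at least 1 CPM, 6 lay above every other lymphoma, of which 5 were within 1 Mb and 2900052N01Rik (4.59 CPM against a maximum of 3.44) was at -2071.9 kb. The nearest was Zw10, a kinetochore gene at 70.2 kb from Usp28, with 320.5 CPM against a maximum of 119.0 elsewhere. On the other side stood Rbm7 (433.0 CPM against 116.0, at -496.7 kb), Rexo2 (386.5 CPM against 75.8, at -516.9 kb) and Nxpe2 (26.7 CPM against 4.01, at -667.4 kb). Zbtb16, which encodes the transcription factor PLZF and lies between them, had 160.5 CPM against a median of 2.42, and another lymphoma reached 203.3 CPM. Not every gene of the stretch was high, since Gm5616 had 37.9 CPM against a median of 69.6 and Nnmt 1.43 against 1.17. On the far side of Zw10, Ttc12, at 451.6 kb from Usp28, had 0.645 CPM and lay below every other lymphoma. The whole of chromosome 9 was at 0.17 (log2) in this mouse against a median of -0.02 in the others. Mouse 202 had the next highest Usp28 at 32.4 CPM.

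In mouse 881, the untreated p53-/- lymphoma with the high B-lineage sum, Cradd had 18.3 CPM against 2.11 to 9.001 CPM elsewhere. Of 10 neighbours within 1 Mb, 4 lay above every other lymphoma. Socs2, a feedback inhibitor of cytokine signalling at 210.6 kb from Cradd, had 138.6 CPM against a median of 2.54 and a maximum of 38.1. Nudt4 (198.4 against 191.2 CPM) and Ube2n (185.5 against 184.8) were barely above the others' maximum. Chromosome 10 as a whole was at 0.39 in this mouse against -0.10 in the others. Its 4 biopsies had 12.2 to 26.1 CPM of Cradd, all above every other lymphoma. Whether the B-lineage character or the chromosome accounts for the level was not tested.

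Mouse 643, also an untreated p53-/- lymphoma, had the lowest Trp53bp1 of all mice at 26.03 CPM, where the other lymphomas ranged from 41.95 to 123.3. It also had the lowest Usp28, at 8.59 CPM. The TMM factor that scaled its library total was the lowest of all mice (0.632, with the next at 0.848). With library totals alone, a scaling added after the values were seen, Trp53bp1 (16.5 CPM against at least 36.99) and Usp28 (5.43 CPM against at least 9.47) were still below every other lymphoma. Pidd1 depended on that choice, since mouse 643 was the highest of its group with TMM factors (48.2 CPM) but had only 1 of the other 9 below it with library totals (30.5 CPM). Casp2 depended on it as well, within the range of the other lymphomas with TMM factors (120.4 CPM) but below all of them with library totals (76.1 CPM against at least 82.9). Ankrd26 had 21.3 CPM with TMM factors and was the lowest of its group with library totals (13.5 CPM). Low values with library totals were thus not particular to Trp53bp1 and Usp28. The overlapping Tubgcp4 was within the range of the other lymphomas under both, at 64.8 CPM against a median of 45.2 with TMM factors and 40.9 against 43.7 with library totals. Map1a (0.385 CPM against at least 0.422), Ell3 (0 against at least 0.318) and Serf2 (128.1 against at least 161.8) were the 3 of 38 neighbours below every other lymphoma with TMM factors, and with library totals 11 were. Above every other lymphoma were 2 with TMM factors and 0 with library totals. Chromosome 2 as a whole was at -0.10 in this mouse against 0.07 in the others.

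**Figure D4:**
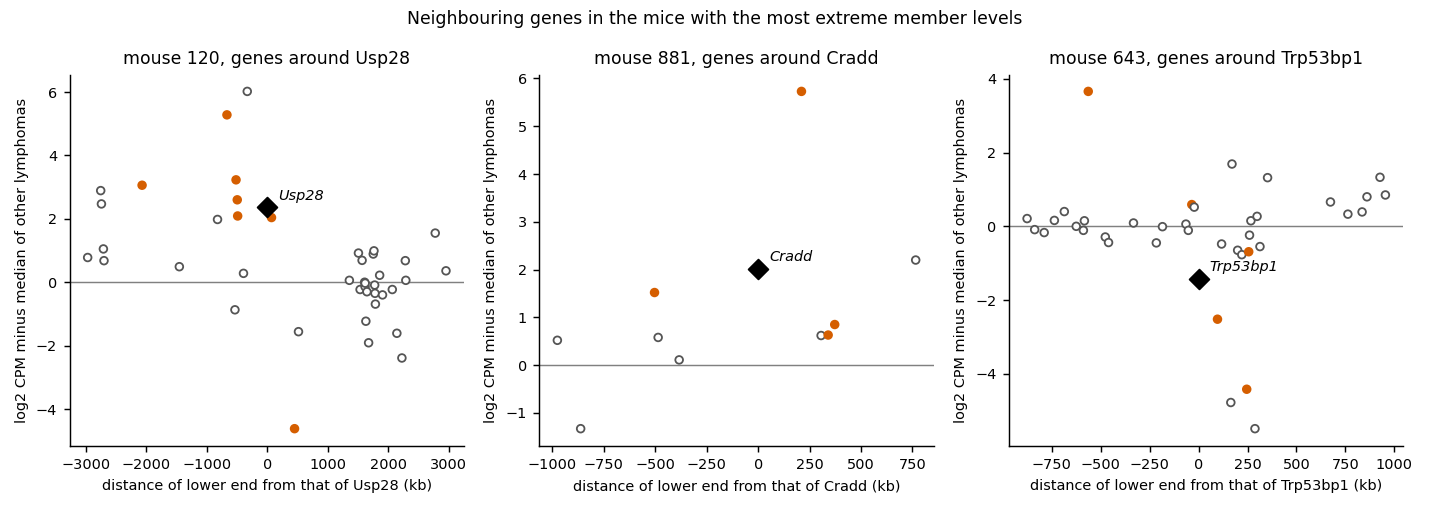
Genes around Usp28 in mouse 120, Cradd in mouse 881 and Trp53bp1 in mouse 643, as log2 CPM minus the median of the other 30 lymphomas, against the distance between the lower-coordinate ends of the genes in kb. Filled orange points lie outside the range of all other lymphomas, open points within it, and the black diamond is the member itself. The orange points beside Usp28 run from Nxpe2 (-667.4 kb) to Zw10 (70.2 kb) and the next outlying gene, Ttc12, is low, while 1 further high point, 2900052N01Rik, lies far away at -2071.9 kb.

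The 13 multifocal tumours show how even each gene is within 1 animal. The standard deviation between biopsies of a tumour was 0.19 (log2) for Pidd1 and Casp2, 0.23 for Usp28, 0.29 for Trp53bp1, 0.32 for Ankrd26 and 0.35 for Cradd. Counting alone gives 0.09, 0.05, 0.12, 0.07, 0.14 and 0.24 in that order of genes, so that the ratio of counting error to spread was highest for Cradd. Differences between tumours took 84.4% of the variance for Casp2, 80.7% for Ankrd26, 78.4% for Usp28, 72.9% for Cradd, 66.8% for Pidd1 and 58.8% for Trp53bp1. The median over all genes was 72.8%, and over genes within 0.5 log2 of each member's level it was between 71.1% and 75.8%. Of the 6 genes, Casp2 thus had the highest share between tumours and Trp53bp1 the lowest. In tumour 884 Trp53bp1 ran from 30.0 to 75.8 CPM over 4 biopsies and Casp2 from 60.2 to 121.6 CPM, with biopsy 8 lowest and biopsy 2 highest for both. Biopsy 2 was also highest there for Pidd1, Cradd, Ankrd26 and Usp28. The lowest was biopsy 8 for Cradd, 6 for Pidd1 and 5 for Ankrd26 and Usp28. In tumour 905 Ankrd26 ran from 9.06 to 24.7 CPM and Trp53bp1 from 47.5 to 97.3 CPM, again with the same biopsies at both ends (9 and 7). Pidd1 and Usp28 had these ends too, Casp2 ran from biopsy 9 to biopsy 3, and Cradd was lowest in 7 and highest in 9. Whether depth, scaling or cell makeup of the biopsies sets such shared ends was not tested. Cradd had its widest range in tumour 857, from 2.17 to 6.94 CPM, but on as few as 2 counts.

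**Figure D5:**
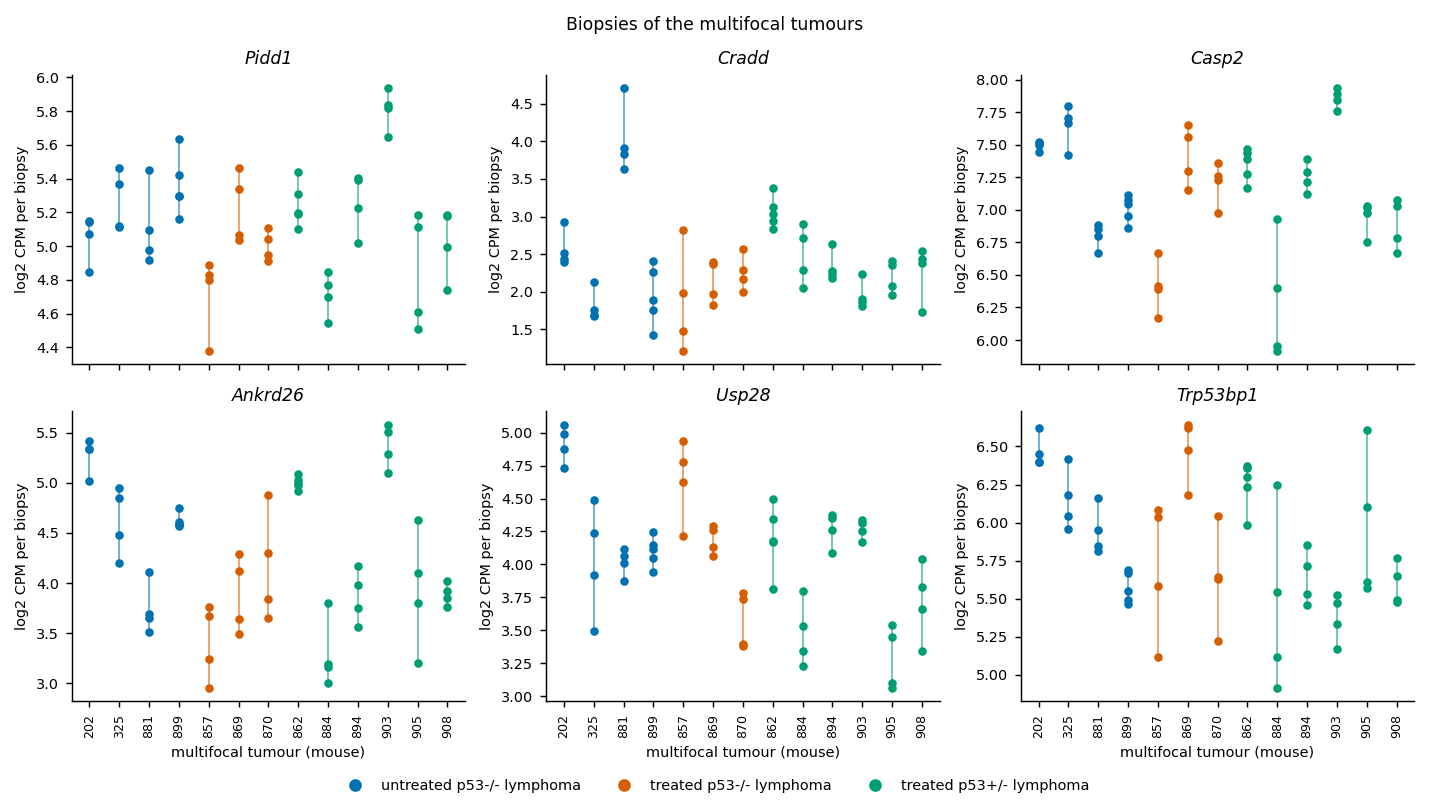
Level of each gene (log2 CPM) in every biopsy of the 13 multifocal tumours, 1 column per mouse, with a line from the lowest to the highest biopsy, coloured by group. Casp2 columns are short beside the distances between tumours, Trp53bp1 columns of tumours 884 and 905 are long, and all 4 Cradd points of tumour 881 lie above every other tumour.

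Members were compared with each other over the 31 lymphomas in 15 pairs, and none passed (Benjamini-Hochberg adjusted permutation p of 0.0535 or more). The closest pair was Pidd1 and Casp2, with r = 0.51 (permutation p = 0.00357, adjusted 0.0535; rho = 0.43). That relation was uneven across groups, with r = 0.84 in treated p53+/- lymphomas and 0.10 and 0.21 in untreated and treated p53-/- lymphomas. Of all 11265 genes whose mean log2 CPM reached 2, those most like Pidd1 across lymphomas were Ticrr (r = 0.76), Arhgap33 (0.76) and Blm (0.74), all on chromosome 7. Those most like Casp2 were Kdm5a (0.78), Mios (0.73) and Rad18 (0.71), all on chromosome 6. Usp28 was followed most closely by Ints13 (0.77), Zw10 (0.76) and Vps26b (0.76), the last 2 on chromosome 9, but these rest largely on mouse 120, without which r was 0.47, 0.55 and 0.45. Trp53bp1 was closest to Dvl2 (0.78), Cep131 (0.75) and Rabgap1 (0.75), and Ankrd26 to Elf4 (0.74), Rif1 (0.72) and Nf2 (0.72). Cradd was closest to Nabp2 (0.76), Tmem123 (0.74) and Herpud2 (0.72), where r without mouse 881 was 0.70, 0.57 and 0.57. Of the 50 most alike genes, between 16 (Casp2) and 25 (Pidd1) sat on the member's own chromosome. For scale, chromosomes 6 and 7 held 861 and 1178 other genes among the 15069 autosomal genes of the chromosome measure, a somewhat different set. These r values describe the libraries and carry no test.

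Lists of genes around the 2 routes give the setting. Beside the counts of these lists stand the shares of all genes called against normal thymus, 23.2%, 25.4% and 25.6% higher and 17.6%, 26.7% and 25.3% lower. Of 8 partners and regulators of PIDD1, 6, 7 and 7 were called higher and 0 lower than normal thymus in the 3 lymphoma groups, with median log2 fold changes of 1.11, 1.18 and 1.08. Chek1, the checkpoint kinase that restrains one PIDD1 activity, rose by 1.72, 1.98 and 1.81 (log2), from a normal median of 14.9 CPM to lymphoma medians of 45.6, 56.9 and 51.6 CPM. Bub1b, the spindle checkpoint protein that can hold PIDD1 back, rose by 1.18, 1.69 and 1.57. Pcna, Fanci, Atm and Hsp90aa1 were also called higher in each group, whereas Ripk1, the kinase of the survival arm, was called in none (0.32, -0.13 and -0.03). Several of these genes are cell-cycle genes, and 9 of 10 proliferation genes were called higher in each group with medians of 1.27, 1.53 and 1.5. The part of proliferation in the list's difference was not tested.

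Of 7 distal appendage genes, 3 were called higher in each group, and these were Cep89 (0.74, 0.79 and 0.76), Sclt1 (0.68, 0.58 and 0.60) and Cep164 (0.75, 0.60 and 0.60). Lrrc45, a linker and appendage gene, fell in treated p53-/- (-0.55) and treated p53+/- lymphomas (-0.71). The list medians were 0.43, 0.03 and 0.31. All 5 kinases, scaffolds and ligases of the stopwatch list rose in every lymphoma group, with medians of 0.94, 1.25 and 1.32. They include Trim37, the ligase that clears centrosome material (0.94, 1.20 and 0.79), and Plk4 (1.07, 1.25 and 1.32). The proliferation genes had medians of 1.27, 1.53 and 1.5, and the part of proliferation in the rise of the stopwatch list was not tested. Plk4 medians were 28.7 CPM in normal thymus and 56.5, 69.2 and 63.3 CPM in lymphomas. The labels do not say how long after doxycycline the tumours were taken, and transgenic and native Plk4 reads cannot be told apart in gene counts.

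On the output side, Bid, a caspase-2 substrate, rose by 0.78, 1.15 and 0.78. Mdm2, whose protein caspase-2 cleaves, was not called (0.02, -0.15 and 0.01), with a median of 77.3 CPM in normal thymus and 80.7, 70.6 and 78.5 CPM in lymphomas. Cdkn1a, the p53 target that arrests the cell cycle, fell by 1.75, 1.96 and 1.30, and Mdm4 fell by 0.53, 0.57 and 0.50 (all log2). In this list 1 of 5 genes was higher and 3 lower in each group. The 3 include Trp53 itself, the gene that is mutant by genotype in the mice with tumours.

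Of 10 chromatin partners of 53BP1, 6, 6 and 7 were called higher and 1 lower. Rif1 (1.35, 1.19 and 1.04) and Paxip1 (1.46, 1.33 and 1.51), whose proteins bind phosphorylated 53BP1, rose in each group. The values of Trp53bp1 were 0.48, 0.50 and 0.24, of which the last did not pass, and the difference between genes was not tested. Brca1, which opposes 53BP1 at breaks, rose by 1.41, 1.61 and 1.46. Within the shieldin arm, Shld2 (0.96, 0.96 and 1.27) and Mad2l2 (0.97, 1.11 and 1.17) rose while Shld1 fell by 0.93, 1.47 and 1.37. H2ax and Mdc1, the chromatin mark and its reader upstream of 53BP1, were not called in any group. No gene of these lists was called between lymphoma groups.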

How the data were processed

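The deposited values are expected counts, unscaled estimates in which RSEM splits reads that fit several genes, for 51826 genes in 81 libraries of 40 mice. STAR 2.7.2b, RSEM 1.1.17, fastp, CASAVA 1.8 and the build mm10 are named in the submitters' processing notes, and the annotation version and the strandedness of counting are not given in the sources used here. Expected counts were rounded to whole numbers and biopsies were summed per mouse. Gene positions came from GENCODE M21 on GRCm38 by Ensembl ID, which matched 51633 IDs (99.63%). Promoters came from RefSeq on GRCm38.p6 by symbol, which matched all 6 members.

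CPM values use TMM-scaled totals, and log2 CPM adds a prior count of 2. Groups were compared with edgeR 4.0.16 in R 4.3.3 (filterByExpr, robust quasi-likelihood fit, labelled sex as covariate, Benjamini-Hochberg adjustment at 0.05). Labelled males were 4 of 8 normal mice, 9 of 10 untreated p53-/-, 4 of 9 treated p53-/- and 3 of 12 treated p53+/- lymphoma mice. Sex was thus partly entangled with treatment and genotype. Normal thymus entered the fits against it and was left out of the fits among lymphomas. The labels give separate mice, so p-values measure spread between animals. In 3 mice the labelled sex and the sex-linked genes disagreed, and fits with the sex read from expression, and without these mice, were among the alternatives. Other alternatives were DESeq2 1.42.0, limma 3.58.1 (voom over biopsies), other scalings, no filter, pairs of groups alone, single-biopsy tumours and each mouse left out.

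Values relative to a chromosome used genes whose mean reached 1 CPM. Their exact permutation tests, and correlations with 100000 permutations, were adjusted over all 15069 autosomal genes, where the plan had been the members alone. Neither kind of test took sex into account. Named genes were the 6 members, genes of the lists for the neighbouring pathways, and the 3 genes most correlated with each member. Members and lists were chosen with earlier results of these data known. On simulated counts for untreated p53-/- lymphomas against normal thymus (16163 genes), edgeR recovered 21.9% of changes of 1 and 72.7% of changes of 2 on the log2 scale. For treated against untreated p53-/- lymphomas (14565 genes) it recovered 27.3% and 80.4%. Only 96 and 99 genes were changed by these sizes in the first simulation and 99 and 97 in the second, with the groups compared fitted alone. The real comparison of untreated p53-/- lymphomas with normal thymus called 7270 of 17841 genes. The simulated shares are therefore not the recovery of the real comparisons. Results for some genes of the lists are not reported here.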

Additional observations from a re-analysis of the deposited data

Results flagged for a closer look

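A value was singled out where its gap to the nearest other value was large against the range of its group (Dixon's 95% limit on log2 CPM, groups of 4 to 10). Of 18 sets of mice and 78 sets of biopsies tested, 3 and 2 stood out, where chance gives about 1 in 20. Among treated p53-/- lymphomas, mouse 497 had 20.01 CPM of Pidd1, and the next lowest had 29.9. Among untreated p53-/- lymphomas, mouse 881 had 18.27 CPM of Cradd, with the next at 7.69. Among normal thymuses, mouse 387 had 43.53 CPM of Casp2, with the next at 85.4. A biopsy of tumour 857 had 20.64 CPM of Pidd1, below the next at 27.8, on only 19 counts. A biopsy of tumour 899 had 26.69 CPM of Ankrd26, above the next at 24.3, which is a small difference in a tumour whose 5 biopsies were close together. Usp28 in mouse 120 (94.5 CPM, with the next at 32.4) did not pass this limit on the log2 scale, and neither did Trp53bp1 in mouse 643 (26.03 CPM, with the next of its group at 49.7).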

How the results depend on the processing

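Over all single values and alternatives, 1639 of 1764 kept direction and side of the threshold, 67 fell short of it, 20 newly passed and 38 changed sign. Pidd1 kept its calls against normal thymus in all 156 results (alternatives times 3 comparisons), and Cradd kept its call in treated p53-/- lymphomas. The 4 members called higher in untreated p53-/- lymphomas became 1 without TMM factors, and 2 with upper-quartile factors, without a filter, with single-biopsy tumours only, or without mice 387 and 978 (the last chosen after seeing the data). The 3 in treated p53-/- became 1 without TMM or with upper-quartile factors. Smaller moves, within 1.5 times of a count, were also frequent gene by gene: of 13 alternatives other than leaving out 1 mouse, the call was lost for Trp53bp1 in 8, for Ankrd26 in 5 and for Casp2 in 1 in untreated p53-/-, for Casp2 in 6 and Trp53bp1 in 3 in treated p53-/-, and for Casp2 in 3 in treated p53+/- lymphomas. The 2 in treated p53+/- became 1 without TMM factors, with upper-quartile factors and without mice 387 and 978. In the same group 1 member (Cradd) became lower without TMM factors, with upper-quartile factors and with voom. The cause was not tested. With 1 mouse left out, members called higher ranged from 2 to 4 in untreated p53-/- (2 without 157, 202, 325, 624, 637, 818, 908, 961 or 980) and from 1 to 4 in treated p53-/- lymphomas (1 without 663), and members called lower in treated p53+/- from 0 to 1 (1 without 881).

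Relative to chromosomes taken from genes of at least 10 CPM, 1 member was lower in untreated p53-/- lymphomas in place of 0, and 2 in place of 3 were higher in treated p53+/- lymphomas. The 3 members correlated with their chromosome became 1 in single-biopsy tumours (18 mice), 6 with genes of at least 10 CPM and 5 without TMM factors.

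Sign changes were confined to values that were not called. Usp28 in treated p53-/- against normal thymus was -0.01 with upper-quartile factors and -0.04 with voom, and relative to its chromosome -0.08 with genes of at least 10 CPM and -0.01 without mouse 387. Ankrd26 in treated against untreated p53-/- was 0.04 in single-biopsy tumours. Between treated p53+/- and p53-/-, Casp2 was -0.05 without TMM and -0.01 with voom, and Ankrd26 was -0.04 without TMM, -0.20 with sex from expression, -0.33 without the 3 sex-discordant mice, -0.07 in single-biopsy tumours and -0.13 with voom. Pidd1 in treated p53+/- against untreated p53-/- was -0.01 without the 3 mice. With 1 mouse left out, ranges that crossed 0 were -0.04 to 0.56 (Usp28, untreated p53-/- against normal, below 0 without 120), -0.39 to 0.11 (Usp28) and -0.06 to 0.14 (Trp53bp1) for treated against untreated p53-/-, -0.04 to 0.09 (Casp2) and -0.18 to 0.23 (Ankrd26) for treated p53+/- against p53-/-, and -0.0043 to 0.11 (Pidd1) and -0.42 to 0.03 (Cradd) for treated p53+/- against untreated p53-/-. No paired analysis was possible because the groups share no mice or replicate numbers. Depth limits Cradd most, whose lowest count in a mouse was 30.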

Other observations

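Markers of other cell types moved with the comparisons against normal thymus. Lower in the lymphoma groups (untreated p53-/- first, then treated p53-/-, then treated p53+/-) were 6, 6 and 6 of 6 fat markers, 4, 5 and 5 of 6 thymic epithelium markers, 0, 5 and 5 of 5 B-lineage markers and 2, 2 and 1 of 7 T-lineage markers (edgeR adjusted p below 0.05). Of 5 myeloid markers none was called in any group, of 3 endothelium markers 1, 1 and 2 were lower, of 4 erythroid markers 0, 1 and 2 were lower, and of 4 fibroblast markers 1 was lower in each group and 1 higher in untreated p53-/- lymphomas. Normal thymus held a median B-lineage sum of 95.9 CPM against 10.96, 11.98 and 14.6 CPM in the lymphoma groups, while mouse 881 held 2897 CPM. In the single p53+/- normal thymus the fat sum was 105.9 CPM, below the lowest p53+/+ thymus (688.4 CPM), and the T-lineage sum was 4143 CPM.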
